A study of Mus musculus with 18 samples.

Results

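The subunits of the mitochondrial respiratory chain were followed as 83 genes of 20416 on the arrays. A gene was taken by its symbol: the Ndufa, Ndufb, Ndufc, Ndufs and Ndufv genes (complex I, 37 genes), Sdha to Sdhd (complex II, 4 genes), the Uqcr genes (complex III, 7 genes), the Cox4i, Cox5, Cox6, Cox7 and Cox8 genes (complex IV, 18 genes) and the Atp5 genes (complex V, 17 genes). The rule uses symbols and no measured value. Of the 83 genes, 82 were bright enough to be tested, and Cox7b2, with log2 signals of 2.55 to 4.88, was left out. RNA came from the caudal corpus callosum, a white matter tract, of C57BL/6 mice on a diet with 0.2% cuprizone (CPZ). CPZ binds copper, and feeding it leads to loss of oligodendrocytes and of myelin. The 18 arrays fell into 6 of Trem2 knockout (KO, TREM2-/-) mice and 5 of wild-type (WT) mice at 12 weeks, and 3 of KO and 4 of WT mice at 6 weeks. Every group was fed CPZ, and no array of normally fed mice was analysed here. The labels do not settle whether the weeks count age or time on CPZ. The sources used here do not give the construct of the Trem2 allele. They do not state that every array had its own mouse either, so the p-values cover only the spread among these samples, which may be technical. The number of arrays, not a depth, limits the precision.

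The respiratory chain passes electrons from NADH at complex I, or from succinate at complex II, through ubiquinone to complex III and on to cytochrome c and complex IV, which reduces oxygen. Complexes I, III and IV pump protons out of the matrix, and complex V, the ATP synthase, uses their return to make ATP. Most subunits are encoded in the nucleus and imported, while a small core of complexes I, III, IV and V is encoded by mitochondrial DNA. Complex IV holds copper in its catalytic centres, and several of its nuclear subunits have isoforms used mainly in muscle, lung or testis. In white matter, axons, astrocytes, microglia and oligodendrocytes all use the chain, so a level in this tissue mixes all of them. Fewer cells of a type and less RNA per cell cannot be told apart in such samples.

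Some symbols need a caution. Atp5f1 and Uqcr are now Atp5pb and Uqcr11. Atp5s and Atp5sl are now Dmac2l and Dmac2, and Dmac2 is known as an assembly factor of complex I, so these 2 are counted with complex V only by their old names. Ndufa4, named for complex I, has since been placed in complex IV, and Cox7a2l is known for joining complexes into supercomplexes. Atp5j, Cox7c and Uqcrb rested on 1 probe set each, since their other probe sets were shared with further genes.

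Trem2 itself, the gene knocked out, had log2 signals of 4.79 at the lowest, 5.33 at the median and 5.59 at the highest in KO against 6.83, 6.96, 7.29, 7.86 and 7.84 in WT at 12 weeks. At 6 weeks it had 6.05, 5.94 and 5.42 in KO against 7.21, 7.09, 8.42 and 6.44 in WT, so no KO array reached a WT array of its stage. The myelin gene Mbp averaged 9.11 ± 0.81 in KO and 9.89 ± 0.76 in WT at 12 weeks, and 9.97 ± 0.85 in KO and 10.78 ± 0.73 in WT at 6 weeks (SD, n = 6, 5, 3 and 4). Mbp did not stand for its cell type at 12 weeks, where 8 of 12 oligodendrocyte genes were higher in KO (median log2 difference 0.25). At 6 weeks 1 of 12 was higher in KO (median -0.59). Some arrays stood apart on lists of cell markers. WT replicate 4 of 6 weeks had a score of 2.68 on a list of 9 ependyma and choroid plexus genes, and KO replicates 5 and 6 of 12 weeks had 1.44 and 1.28, while the other 15 arrays lay between -0.98 and 0.48. A score is the median over a list of log2 signals, each gene centred on its mean over the 18 arrays. On a list of 14 neuron genes, KO replicate 2 and WT replicate 4 of 6 weeks stood at -1.42 and -1.10, and the other 16 arrays between -0.45 and 0.56.

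Nuclear genes of the chain are known to share short promoter motifs, so the 250 bases before the annotated start are printed for 4 members on which later results turn. In windows of 250 bases before to 50 after each start (RefSeq, GRCm38.p6, 75 windows of 69 members), the letters GCGC, then any base, then TGCGC, a core bound by the factor NRF1, were found on either strand in 24.0% of the members' windows and in 4.6% of all windows. CCGGAAG, a core of ETS factors such as GABPA, stood in 21.3% against 8.86%, and AAGATGGCG, a YY1 core, in 12.0% against 1.4%. The GC box GGGCGG was found in 40% against 35.7%, and the TATA letters TATAAA in 10.7% against 13.6%. Among windows of protein-coding genes the shares were 6.38% for the NRF1 core, 11.6% for the ETS core, 1.83% for the YY1 core, 12.6% for the TATA letters and 46.2% for the GC box. The members' share of the GC box thus lay above that of all windows and below that of coding windows. Capitals mark the NRF1 or ETS cores, and the last base is the one before the start.
Ndufb4, chr16:37654369-37654618 on the minus strand: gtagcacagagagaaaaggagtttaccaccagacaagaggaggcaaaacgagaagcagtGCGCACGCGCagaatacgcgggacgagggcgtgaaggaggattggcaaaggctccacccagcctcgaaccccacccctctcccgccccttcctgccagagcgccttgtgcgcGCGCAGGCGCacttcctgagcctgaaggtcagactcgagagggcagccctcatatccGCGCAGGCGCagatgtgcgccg
Ndufa11, chr17:56717512-56717761 on the plus strand: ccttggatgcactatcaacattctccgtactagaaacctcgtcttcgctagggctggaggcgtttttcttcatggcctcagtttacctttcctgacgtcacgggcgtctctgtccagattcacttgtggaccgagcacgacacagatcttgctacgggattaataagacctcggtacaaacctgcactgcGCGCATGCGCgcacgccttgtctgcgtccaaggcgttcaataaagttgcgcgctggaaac
Uqcr11, chr10:80406822-80407071 on the minus strand: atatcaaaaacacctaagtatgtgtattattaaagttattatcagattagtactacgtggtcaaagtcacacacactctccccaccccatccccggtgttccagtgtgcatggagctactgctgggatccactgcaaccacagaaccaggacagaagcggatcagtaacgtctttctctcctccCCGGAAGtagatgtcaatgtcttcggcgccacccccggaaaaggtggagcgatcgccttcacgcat
Cox6b2, chr7:4753095-4753344 on the minus strand: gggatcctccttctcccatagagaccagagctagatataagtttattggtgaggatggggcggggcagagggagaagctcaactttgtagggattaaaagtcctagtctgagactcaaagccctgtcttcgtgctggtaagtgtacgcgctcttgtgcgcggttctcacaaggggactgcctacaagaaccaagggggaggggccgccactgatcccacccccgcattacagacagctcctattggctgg
The Ndufb4 stretch held 3 NRF1 cores, from base -191 to -182, from -79 to -70 and from -22 to -13 counted back from the start. Ndufa11 held 1, from -60 to -51, and Uqcr11 held an ETS core from -66 to -60. No NRF1, ETS or YY1 core was in the whole window of Cox6b2, Cox7a1 or Cox8b. The same held for widely used members such as Cox5a, Cox7a2 and Ndufa4, so this lack was not particular to restricted isoforms. A match of letters is a description and not a bound site.

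Each complex was also given a score in every array, made like the marker scores. Complex III had 0.09 at the lowest, 0.18 at the median and 0.26 at the highest in KO at 12 weeks, against 0.05, 0.16, -0.09, -0.10 and -0.11 in WT at 12 weeks. At 6 weeks it had -0.21, -0.25 and -0.23 in KO against 0.17, -0.25, -0.28 and 0.09 in WT. The 6 KO arrays of 12 weeks lay above all 3 KO arrays of 6 weeks in complexes I, III and V. In complex IV the nearest arrays of the stages differed by under 0.01, and in complex II the stages overlapped. Complex I had 0.03 at the lowest, 0.16 at the median and 0.23 at the highest in KO at 12 weeks against -0.07, -0.22 and -0.20 in KO at 6 weeks. In WT the stages overlapped in all 5 complexes. WT replicates 1 and 2 of 12 weeks, with complex I scores of 0.14 and 0.26, lay within the range of the KO arrays of 12 weeks or above it, and WT replicates 3 to 5, with -0.06, -0.16 and -0.05, lay below it.

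**Figure D1:**
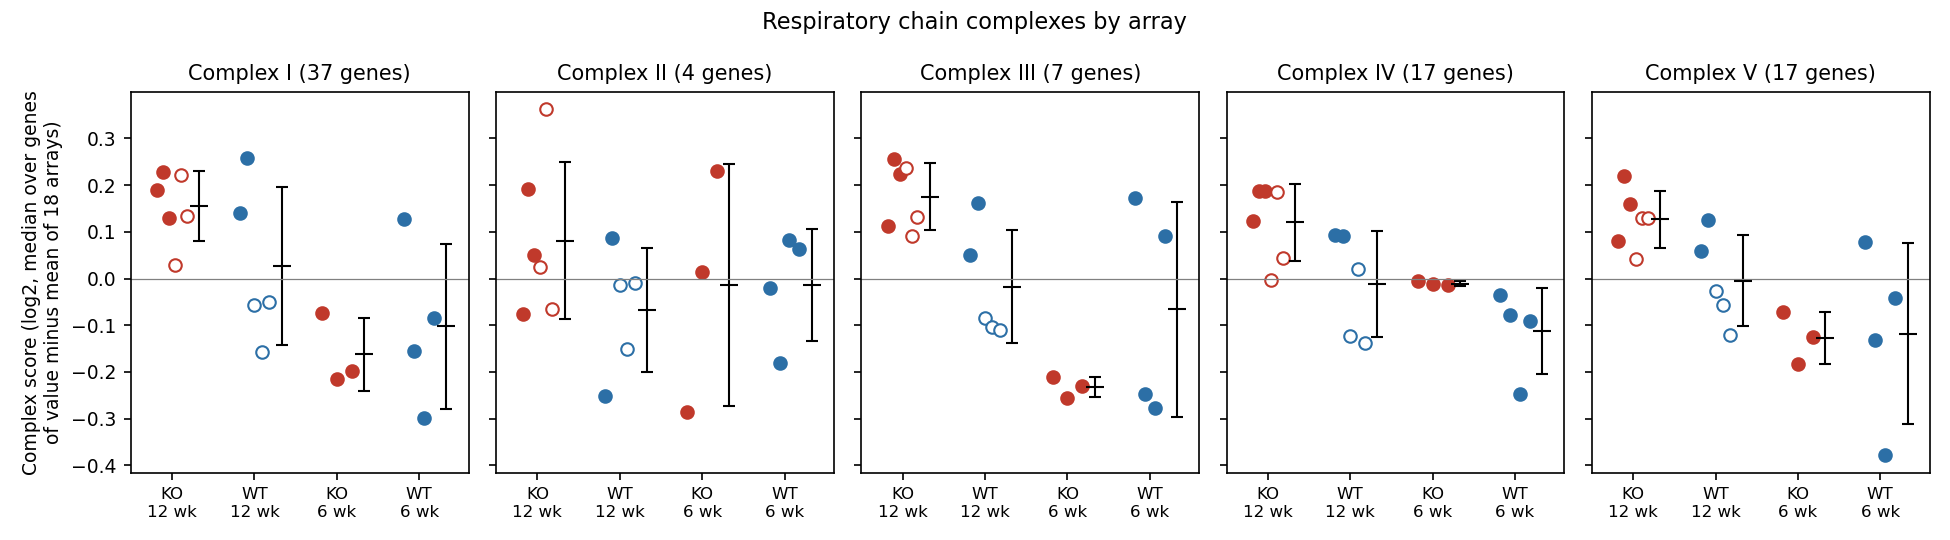
Complex scores by array. Each panel is a complex, each point an array (KO red, WT blue, open circles the arrays of 12 weeks deposited in the second run), and the bar beside each group its mean and SD; the vertical axis is the log2 score. The KO arrays of 12 weeks lie clear above those of 6 weeks in complexes I, III and V.

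At 12 weeks KO was set against WT, which asks whether losing Trem2 alters the chain late in CPZ feeding or in older mice. No member passed (adjusted p under 0.05 over 16332 genes, limma, 0 of 82), while 0.441% of all genes did (0.367% higher and 0.0735% lower). At an unadjusted p under 0.05, 11 of 82 members (13.4%) were higher in KO and 0 lower, against 6.87% of all genes higher and 4.22% lower. The members' median log2 difference was 0.13, against 0.02 over all genes, and 65 of 82 were above 0, against 52.4% of all genes. With quantile normalization the median was 0.049 with 54 of 82 above 0 (all genes -0.02), and with the brightest probe set of each gene 0.022 with 44 of 82 (all genes -0.07). By complex the median was 0.13 for I, 0.03 for II, 0.22 for III, 0.13 for IV and 0.12 for V. For 78 of 82 members the 95% interval lay within a log2 difference of 1 either way, and for 41 within 0.5. Atp5sl, Cox6b2, Cox7a1 and Cox8b had intervals that went past 1.

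**Figure D2:**
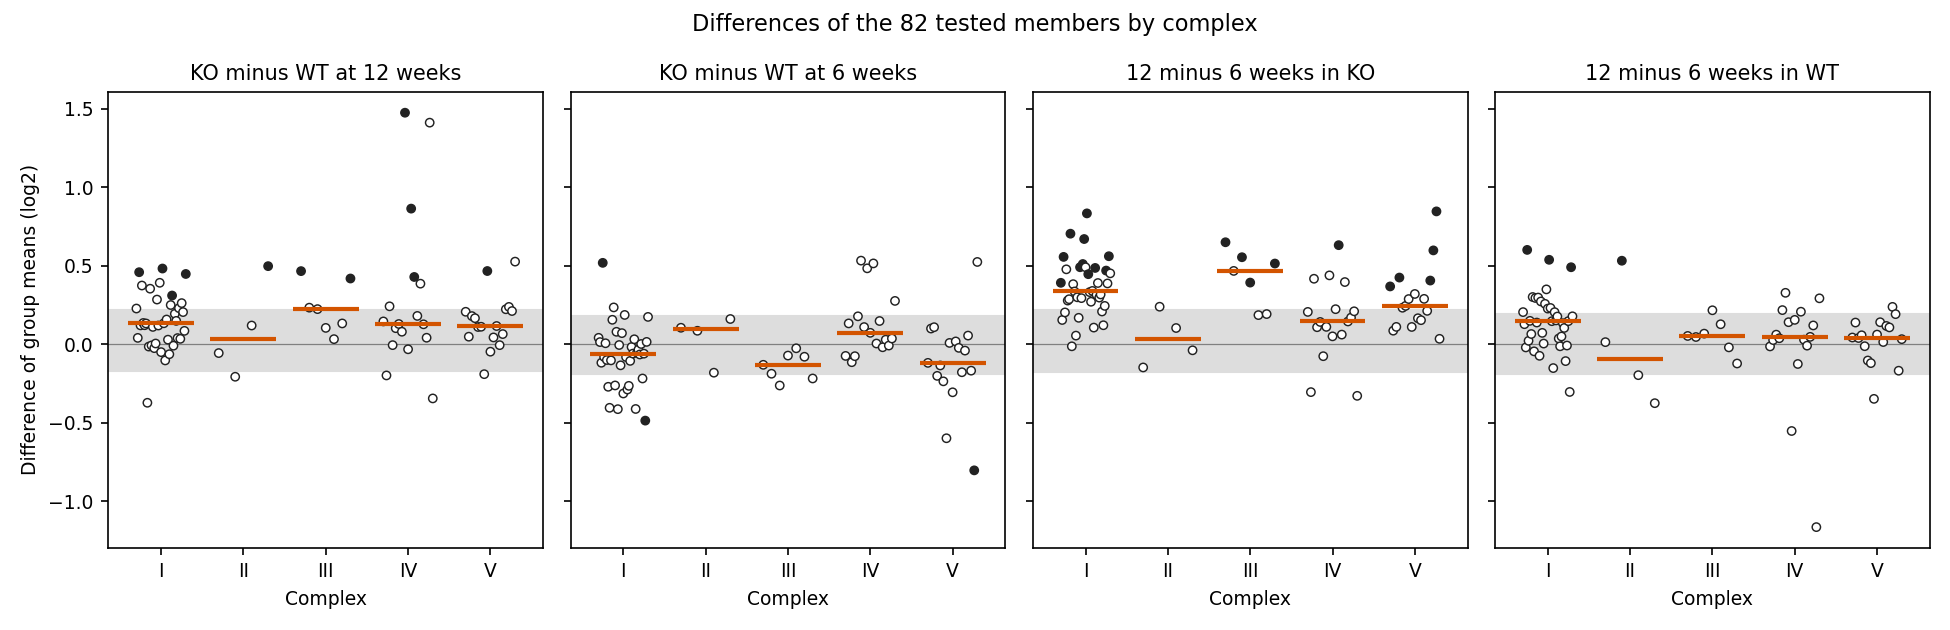
Log2 differences of the 82 tested members in 4 comparisons, with complexes on the horizontal axis. Points are genes, filled where the unadjusted p was under 0.05, orange lines the median of a complex and the grey band the middle 50% of all 16332 genes. Filled points are most frequent in 12 minus 6 weeks in KO, with 21 genes.

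Cox6b2, the isoform of subunit VIb used mainly in testis, had the largest difference and the smallest p of the members. Its log2 signals were 7.02 at the lowest, 7.96 at the median and 8.05 at the highest in KO against 5.57, 6.12, 6.79, 6.13 and 6.44 in WT at 12 weeks, and it was the only member whose 12-week groups did not overlap, where 1.7% of all genes were higher in KO with no overlap and 0.771% lower. The difference was 1.48 ± 0.36 (SE), 2.78-fold, with adjusted p = 0.0769. It passed in 4 of 30 other settings, with adjusted p = 0.0147 without WT replicate 4 of 6 weeks and 0.0073 with only the 12-week arrays fitted. Over its 7 probe sets the difference ran from -0.14 to 1.57, and with its brightest probe set it was 0.63. Cox7a1, the muscle isoform of subunit VIIa, had 6.60 at the lowest, 6.82 at the median and 7.23 at the highest in KO against 5.89, 6.00, 5.73, 6.65 and 5.67 in WT. Only WT replicate 4 reached the KO range, and the difference was 0.86 ± 0.27 with adjusted p = 0.202. All 4 of its probe sets were higher in KO, by 0.83 to 1.06, and it passed with only the 12-week arrays fitted (adjusted p = 0.04).

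Cox8b, the muscle isoform of subunit VIII, had the highest SD of the 82 tested members in KO at 12 weeks, in WT at 12 weeks and in WT at 6 weeks. It had 5.73 at the lowest, 6.91 at the median and 8.43 at the highest in KO against 4.58, 5.67, 5.06, 7.52 and 5.25 in WT at 12 weeks. The groups overlapped, and the difference of 1.41 ± 0.71 did not pass (adjusted p = 0.468). Its highest signals were in the arrays with the highest ependyma and choroid plexus scores: 9.94 in WT replicate 4 of 6 weeks, and 8.43 and 8.21 in KO replicates 6 and 5 of 12 weeks. Cox6b2 was also highest in WT replicate 4 of 6 weeks, at 8.35. In KO at 12 weeks it was lowest in replicates 1 and 3, at 7.11 and 7.02. Those replicates also had the lowest ependyma and choroid plexus scores of their group. Replicates 2 and 4, with scores of 0.07 and -0.12, had Cox6b2 signals of 8.05 and 8.03, against 7.97 and 7.95 in replicates 5 and 6. Within KO at 12 weeks Cox7a1 was highest in replicates 6 and 5, at 7.23 and 7.03. It was highest in replicate 4 of both WT groups, at 6.65 for 12 weeks and 6.99 for 6 weeks, the array with the highest such score of its group. KO replicate 2 of 6 weeks, in a group with scores of at most 0.48, had 7.14. All 9 genes of that list were higher in KO at 12 weeks, with a median of 0.95 and none passing, and its scores were -0.58 at the lowest, -0.02 at the median and 1.44 at the highest in KO against -0.98, -0.66, -0.37, -0.13 and -0.70 in WT. All 11 microglia genes were higher in KO too, with a median of 1.27, and 4 passed (Itgam, P2ry12, Fcrls and Tmem119). Microglia scores were 0.07 at the lowest, 0.62 at the median and 0.95 at the highest in KO against -0.99, -0.48, -0.85, -0.58 and -0.55 in WT. Of 10 astrocyte genes 9 were above 0, with a median of 0.51 and none passing, and a list of 10 striated muscle genes had a median of 0.03. Of 12 oligodendrocyte genes 8 were above 0, with a median of 0.25 and none passing. The part of these cell types in the 3 isoforms was not tested.

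**Figure D3:**
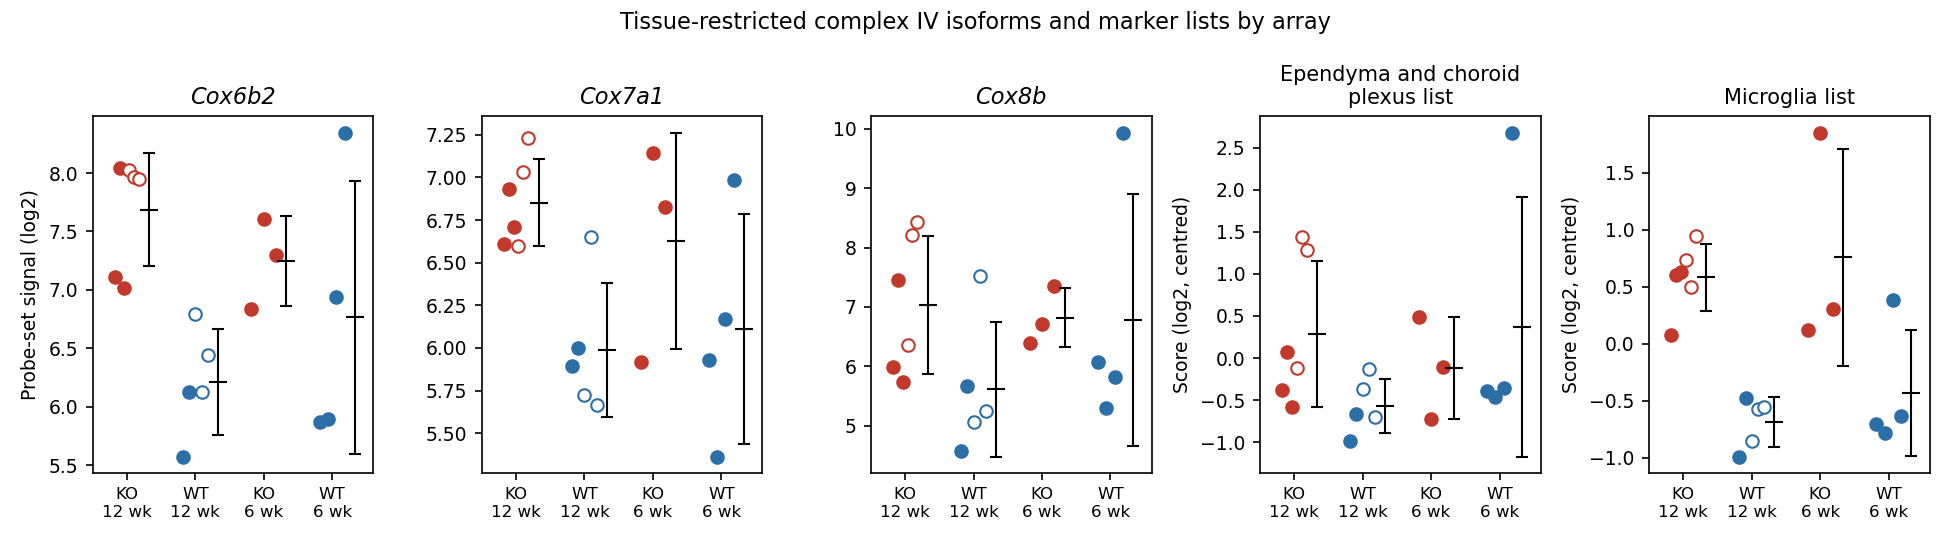
Log2 signals of Cox6b2, Cox7a1 and Cox8b and the scores of 2 marker lists, by group. Points are arrays (KO red, WT blue, open circles the second run of 12 weeks), with the mean and SD beside them. WT replicate 4 of 6 weeks is the highest array for Cox6b2, for Cox8b and for the ependyma and choroid plexus score.

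The other restricted isoforms of complex IV had smaller differences. Cox6a2, the muscle isoform of subunit VIa, differed by 0.13 ± 0.23 at 12 weeks, with 6.71 at the lowest, 7.17 at the median and 7.34 at the highest in KO against 7.16, 7.23, 6.49, 7.23 and 6.88 in WT. Cox4i2, the lung isoform of subunit IV, differed by -0.20 ± 0.18 and Cox8c, a testis isoform, by -0.34 ± 0.17, both with adjusted p of 0.713 and 0.46. Cox4i2 had 3.89 at the lowest, 4.25 at the median and 4.59 at the highest in KO against 4.43, 4.03, 4.72, 4.94 and 4.24 in WT, and Cox8c 3.58 at the lowest, 3.85 at the median and 4.47 at the highest in KO against 4.31, 4.04, 4.37, 4.25 and 4.54 in WT. The 6 restricted isoforms had a median of 0.50 and a range from -0.34 to 1.48, and the other 11 subunits of complex IV a median of 0.13 and a range from -0.03 to 0.43. Among the restricted isoforms, Cox4i2 and Cox8c were dim, with means of 4.42 and 4.12 over all arrays. The median of all probe sets was 5.26 to 5.41 per array. Among the widely used partners, Cox6b1 had 10.97 at the lowest, 11.24 at the median and 11.34 at the highest in KO against 11.32, 11.31, 10.96, 11.05 and 10.97 in WT, and Cox8a 10.91 at the lowest, 11.08 at the median and 11.26 at the highest in KO against 11.11, 11.31, 10.97, 10.93 and 10.83 in WT. Cox6a1 had 10.57 at the lowest, 10.75 at the median and 10.94 at the highest in KO against 10.72, 10.52, 10.75, 10.66 and 10.60 in WT, and Cox4i1 10.36 at the lowest, 10.48 at the median and 10.59 at the highest in KO against 10.27, 10.21, 10.42, 10.39 and 10.34 in WT. The groups overlapped in all 4. The differences of these 4 lay between 0.04 and 0.15, with 95% intervals of -0.20 to 0.36 for Cox6b1 and -0.23 to 0.31 for Cox8a. Cox7a2, the widely used partner of Cox7a1, had 10.44 at the lowest, 10.72 at the median and 10.92 at the highest in KO against 10.19, 10.70, 10.21, 10.16 and 10.11 in WT. It was higher in KO by 0.43 ± 0.16 (adjusted p = 0.318), and WT replicate 2 was the only WT array in the KO range.

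In the other complexes the member with the smallest p differed by less than 0.6. Ndufa11, an accessory subunit in the membrane arm of complex I whose promoter is printed above, had 10.56 at the lowest, 10.80 at the median and 11.05 at the highest in KO against 10.27, 10.39, 10.07, 10.27 and 10.57 in WT, a difference of 0.46 ± 0.16 (adjusted p = 0.264). Uqcr11, a small subunit of complex III, had 9.71 at the lowest, 10.09 at the median and 10.29 at the highest in KO against 9.70, 9.87, 9.33, 9.61 and 9.45 in WT and differed by 0.47 ± 0.16 (adjusted p = 0.274). In each gene a single WT array reached the KO range. Sdhd, a membrane anchor of complex II, had 6.58 at the lowest, 7.0 at the median and 7.40 at the highest in KO against 6.10, 6.22, 6.54, 6.69 and 6.90 in WT, and differed by 0.50 ± 0.20 (adjusted p = 0.359). Sdha and Sdhb, the catalytic flavoprotein and iron-sulfur subunits of the same complex, differed by -0.06 ± 0.18 and -0.21 ± 0.19. Of the 3 genes for the c subunit of the ATP synthase ring, which encode the same mature protein, Atp5g2 had 9.23 at the lowest, 9.74 at the median and 9.89 at the highest in KO against 8.49, 9.23, 9.37, 9.58 and 9.40 in WT. Atp5g2 differed by 0.47 ± 0.21 (adjusted p = 0.405), Atp5g1 by -0.19 ± 0.28 and Atp5g3 by -0.05 ± 0.17, so the 3 genes did not share a direction. Atp5g1 had 5.93 at the lowest, 6.52 at the median and 6.72 at the highest in KO against 7.47, 6.56, 6.18, 6.82 and 6.00 in WT, and Atp5g3 10.16 at the lowest, 10.52 at the median and 10.73 at the highest in KO against 10.58, 10.56, 10.51, 10.57 and 10.42 in WT. In both the groups overlapped.

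Another 4 members had an unadjusted p under 0.05 at 12 weeks. Ndufb4 had 9.95 at the lowest, 10.23 at the median and 10.64 at the highest in KO against 9.87, 10.25, 9.70, 9.40 and 9.67 in WT and differed by 0.48 ± 0.17 (adjusted p = 0.274), with only WT replicate 2 inside the KO range. Uqcrq, a small subunit of complex III near the ubiquinone site, differed by 0.42 ± 0.18 (adjusted p = 0.398), Ndufv3, an accessory subunit at the NADH end of complex I, by 0.45 ± 0.21 (adjusted p = 0.431) and Ndufc2, in its membrane arm, by 0.31 ± 0.14 (adjusted p = 0.413). At the other end, Ndufa4l2, a form induced by low oxygen, had the lowest difference of the members, -0.37 ± 0.22 (adjusted p = 0.553), with 4.00 at the lowest, 4.57 at the median and 4.92 at the highest in KO against 5.06, 4.47, 5.43, 4.44 and 4.95 in WT. Its signal was low, with a mean of 4.70 over the 18 arrays, where the median of all probe sets was 5.26 to 5.41 per array. Its 4 probe sets ran from -0.89 to 0.08. On a list of 10 genes of the response to low oxygen, 8 were above 0, none passed and the median was 0.24.

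The 12-week difference changed with the division of the arrays. Their accession numbers fall into 2 runs that each hold both genotypes, which may or may not be a batch, and sex, read from sex-linked genes, was crossed with genotype: in the first run KO arrays were male and WT arrays female, and in the second the reverse. Within the first run (3 KO, 2 WT) the members' median was 0.04 with 48 of 82 above 0, and within the second (3 KO, 3 WT) 0.21 with 70. Among males (3 KO, 3 WT) it was 0.26 with 72 above 0, and among females (3 KO, 2 WT) -0.04 with 34, while the median of all genes stayed between 0.00 and 0.02. Complex I had 0.30 among males and -0.11 among females, and Ndufb4 0.82 and 0.05. Within a run, genotype could not be told apart from sex, and within a sex it could not be told apart from run. Cox6b2, Cox7a1 and Cox8b were higher in KO in all 4 divisions, which reuse the same arrays and so are not independent. Cox6b2 differed by 1.54 and 1.53 within the runs, by 0.94 among males and by 2.13 among females. Cox7a1 differed by 0.80, 0.94, 0.74 and 1.01 in the same order, and Cox8b by 1.27, 1.72, 0.45 and 2.54. Of the other restricted isoforms, Cox6a2 differed by -0.18 in the first run and 0.38 in the second, Cox4i2 by -0.40 among males and 0.08 among females, and Cox8c was below 0 in all 4. Ndufa11 ranged from 0.40 to 0.52 over the 4 divisions. These medians carry no test, and the SE of a single member in the whole fit had a median of 0.17.

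At 6 weeks, 3 KO arrays against 4 WT arrays gave no direction shared by all complexes. No member passed (0 of 82), against 0.0429% of all genes, and at an unadjusted p under 0.05 there were 3 members (3.66%), 1 higher and 2 lower, against 5.44% of all genes (3.26% higher and 2.17% lower). The median was -0.04, against -0.003 over all genes, with 34 of 82 above 0, against 49.6% of all genes. By complex it was -0.06 for I, 0.10 for II, -0.13 for III, 0.07 for IV and -0.12 for V. All 7 genes of complex III were below 0, and the lowest was Uqcrc1. The interval lay within a log2 difference of 1 for 74 of 82 members. With quantile normalization the members' median was -0.06 with 26 of 82 above 0 (all genes -0.005). With the brightest probe set it was -0.07 with 17 of 82 above 0 (all genes -0.04). Leaving out any 1 array gave 22 to 45 members above 0.

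Dmac2l (Atp5s), once described as coupling factor B of the ATP synthase, had the smallest p of this comparison. It had 6.15, 4.92 and 4.85 in KO against 6.45, 5.90, 6.11 and 5.98 in WT, with KO replicates 2 and 3 about a log2 unit below every WT array and KO replicate 1 within the WT range. The difference was -0.80 ± 0.34 (adjusted p = 0.842), and its 5 probe sets ran from -0.71 to 0.02. No probe set alone thus differed as much as the gene value, which is their median within each array. Under the other settings the difference ran from -0.95 to -0.19, and with any 1 array left out from -1.22 to -0.57. Ndufa12, an accessory subunit of complex I, had 7.83, 8.30 and 7.73 in KO against 7.54, 7.36, 7.41 and 7.42 in WT. The groups did not overlap, which held for 2.72% of all genes in this direction, and the difference was 0.52 ± 0.24 (adjusted p = 0.885), but 1 of its 3 probe sets was higher and 2 were lower. Ndufv1, which binds the flavin that takes electrons from NADH, had 7.81, 8.02 and 7.26 in KO against 8.27, 8.13, 8.24 and 8.10 in WT and differed by -0.49 ± 0.23 (adjusted p = 0.912). Ndufv1, Uqcrc1 and Atp5d were lower with no overlap, 3 of 82 members against 2.36% of all genes. Uqcrc1, a core protein of complex III, had 7.41, 7.30 and 7.53 in KO against 7.83, 7.67, 7.59 and 7.60 in WT and differed by -0.26 ± 0.21. Sdhc, the other membrane anchor of complex II, had 8.95, 9.12 and 9.54 in KO against 9.36, 9.10, 9.28 and 9.80 in WT and differed by -0.18 ± 0.24.

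The restricted complex IV isoforms were on average higher in KO at 6 weeks as well, but within the spread of the arrays. Their median was 0.38, against 0.01 for the other 11 subunits, and none passed. Cox6b2 had 6.84, 7.61 and 7.30 in KO against 5.87, 5.90, 6.94 and 8.35 in WT, and Cox7a1 5.92, 7.14 and 6.82 in KO against 5.93, 5.36, 6.17 and 6.99 in WT. Their differences were 0.48 ± 0.46 and 0.52 ± 0.33, and in both genes WT replicate 4 was the highest WT array. Cox6a2 went the other way in that array: it had 6.53, 7.51 and 7.56 in KO against 6.86, 6.93, 6.96 and 5.94 in WT and differed by 0.53 ± 0.28 (adjusted p = 0.941). Cox8b had 6.39, 6.71 and 7.36 in KO against 6.07, 5.3, 5.82 and 9.94 in WT, with means of 6.82 and 6.78. At this stage 11 of 11 microglia genes were higher in KO, with a median of 1.14, and 1 passed, P2ry12. The ependyma and choroid plexus list had 3 of 9 genes above 0 and a median of -0.57. Their part in these isoforms was not tested.

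Between stages in KO the members were higher at 12 than at 6 weeks in nearly every gene of complexes I, III and V. No member passed, against 0.00612% of all genes in either direction. At an unadjusted p under 0.05, 21 of 82 members (25.6%) were higher and 0 lower, against 4.7% of all genes higher and 2.8% lower (7.51% in all). The groups did not overlap in 21 members (25.6%), all higher at 12 weeks, against 2.28% of all genes higher and 1.62% lower. The median was 0.29, against 0.02 over all genes, and 76 of 82 were above 0, against 52.2% of all genes. Complex III had the highest median, 0.47 with 7 of 7 genes higher and 4 at an unadjusted p under 0.05. Complex I had 0.34 with 36 of 37 genes higher, complex V 0.24 with 17 of 17, complex IV 0.15 with 14 of 17 and complex II 0.03 with 2 of 4. The 6 KO arrays of 12 weeks also enter the comparison with WT at 12 weeks, and the 3 of 6 weeks that at 6 weeks, so these comparisons are not independent of each other.

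Ndufb4, an accessory subunit in the membrane arm of complex I whose promoter is printed above, had the smallest p. It had 9.95 at the lowest, 10.23 at the median and 10.64 at the highest at 12 weeks against 9.30, 9.31 and 9.67 at 6 weeks in KO, with no overlap. The difference was 0.83 ± 0.20, 1.78-fold (adjusted p = 0.264), and all 4 probe sets were higher, by 0.53 to 0.90. Ndufa4, a small subunit with the paralogue Ndufa4l2, had 11.15 at the lowest, 11.23 at the median and 11.50 at the highest at 12 weeks against 10.67, 10.12 and 10.88 at 6 weeks and differed by 0.70 ± 0.21 (adjusted p = 0.452). KO replicate 2 of 6 weeks was the lowest of all 18 arrays for Ndufa4. Ndufa4l2 differed by -0.01 ± 0.26, with 4.00 at the lowest, 4.57 at the median and 4.92 at the highest at 12 weeks against 4.93, 4.05 and 4.56 at 6 weeks.

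The 6 members that are core subunits of complex I were all above 0. Ndufv2 differed by 0.56 ± 0.22, Ndufs8 by 0.47 ± 0.18, Ndufs1 by 0.39 ± 0.24, Ndufv1 by 0.39 ± 0.21, Ndufs3 by 0.30 ± 0.21 and Ndufs7 by 0.24 ± 0.21. Ndufs8 had 8.55 at the lowest, 8.74 at the median and 8.94 at the highest at 12 weeks against 8.29, 8.47 and 8.03 at 6 weeks, with no overlap. Among the accessory subunits, Ndufb2 differed by 0.67 ± 0.22, Ndufa11 by 0.56 ± 0.19 and Ndufb11 by 0.51 ± 0.16, and Ndufab1, the mitochondrial acyl carrier protein, by 0.49 ± 0.18. Ndufab1 had 8.88 at the lowest, 8.95 at the median and 9.05 at the highest at 12 weeks against 8.84, 8.29 and 8.28 at 6 weeks, again with no overlap.

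Uqcr11 had 9.71 at the lowest, 10.09 at the median and 10.29 at the highest at 12 weeks against 9.41, 9.77 and 9.05 at 6 weeks, a difference of 0.65 ± 0.19 (adjusted p = 0.452), with KO replicate 2 of 6 weeks inside the range of 12 weeks. Uqcrb, a small subunit at the ubiquinone site, had 9.53 at the lowest, 9.81 at the median and 10.31 at the highest against 9.46, 9.41 and 9.36 and did not overlap. Cox7a2 was the only member of complex IV at an unadjusted p under 0.05, with 10.44 at the lowest, 10.72 at the median and 10.92 at the highest at 12 weeks against 10.21, 9.90 and 10.11 at 6 weeks. It differed by 0.63 ± 0.19 (adjusted p = 0.452), and all 7 of its probe sets were higher at 12 weeks. Atp5o, the stator subunit that ties the catalytic head of the ATP synthase to its side stalk, had 9.67 at the lowest, 9.98 at the median and 10.34 at the highest against 9.05, 9.55 and 9.52 and differed by 0.60 ± 0.20 (adjusted p = 0.5). In the head of the ATP synthase, Atp5a1 differed by 0.37 ± 0.16, Atp5b, the catalytic beta subunit, by 0.09 ± 0.20 and Atp5d, in the central stalk, by 0.43 ± 0.17, with no overlap for Atp5d. In the core of complex III, Uqcrc1 differed by 0.56 ± 0.19, Uqcrc2 by 0.39 ± 0.17 and Uqcrfs1, the iron-sulfur protein that hands electrons to cytochrome c1, by 0.19 ± 0.19. The 6 members not above 0 were Sdha and Sdhd of complex II, Cox4i2, Cox6a2 and Cox8c of complex IV, and Ndufa4l2. Sdhb, the member of complex II with the smallest p here, differed by 0.24 ± 0.22, with 8.30 at the lowest, 8.76 at the median and 9.09 at the highest at 12 weeks against 8.42, 8.71 and 8.34 at 6 weeks.

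**Figure D4:**
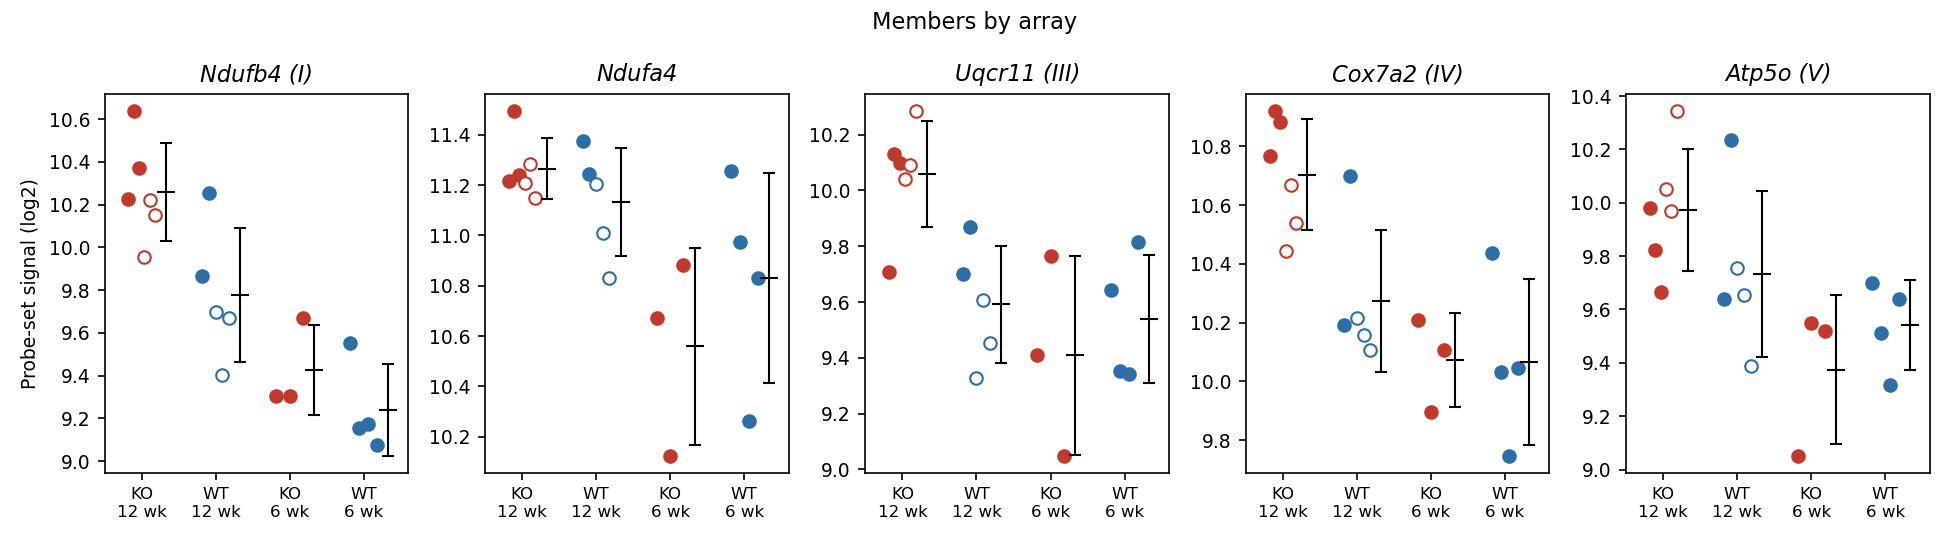
Log2 signals of 5 members by group, with the complex in brackets. Points are arrays (KO red, WT blue, open circles the second run of 12 weeks), with the mean and SD beside them. Ndufb4, Cox7a2, Ndufa4 and Atp5o have no overlap between 12 and 6 weeks in KO, and all 5 overlap between the stages in WT.

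The KO stage difference was also taken within divisions, which share arrays of both stages and so are not independent. In KO the male arrays of 12 weeks are those of the first run and the female arrays those of the second. Sex and run thus cannot be told apart among them. With only the 12-week arrays of the first run the members' median was 0.29, and with those of the second 0.27, both against the same 3 KO arrays of 6 weeks. Among males (3 arrays of 12 weeks, 2 of 6 weeks) it was 0.28 and among females (3 against 1) 0.26. Leaving out any 1 array gave medians between 0.25 and 0.31. The count at an unadjusted p under 0.05 was 14 without KO replicate 3 of 6 weeks, 15 without KO replicate 2 and WT replicate 4 of 6 weeks, and 8 with the brightest probe set standing for each gene. Complex III stood between 0.41 and 0.48 in the 4 divisions. Of the neuron markers, 13 of 14 were higher at 12 weeks in KO, with a median of 0.55 and none passing, and scores of -0.30 at the lowest, 0.12 at the median and 0.39 at the highest at 12 weeks against -0.02, -1.42 and 0.23 at 6 weeks. Of the oligodendrocyte markers 0 of 12 were above 0, with a median of -0.88 and none passing. The ependyma and choroid plexus list had 7 of 9 genes above 0 and a median of 0.46, none passing. The part of these cell types in the members' difference was not tested. The 6-week arrays form a run of their own, so stage and run cannot be told apart.

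Between stages in WT the members' median lay slightly above that of all genes, and most members were above 0. No member passed, against 0.0184% of all genes, and 4 members (4.88%) were higher at an unadjusted p under 0.05, against 8.47% of all genes in either direction (3.94% higher and 4.53% lower). The median was 0.07, against 0.01 over all genes, with 60 of 82 above 0, against 51.2%. By complex it was 0.15 for I, -0.09 for II, 0.05 for III, 0.05 for IV and 0.04 for V. Ndufa12 had 7.90, 8.31, 8.32, 7.46 and 8.16 at 12 weeks against 7.54, 7.36, 7.41 and 7.42 at 6 weeks and differed by 0.60 ± 0.21 (adjusted p = 0.428), with WT replicate 4 of 12 weeks inside the range of 6 weeks. Over its 3 probe sets the difference ran from 0.01 to 0.63. Ndufb4 had 9.87, 10.25, 9.70, 9.40 and 9.67 against 9.55, 9.15, 9.18 and 9.08 and differed by 0.54 ± 0.19 (adjusted p = 0.428). Ndufv2, an iron-sulfur subunit beside Ndufv1, was the only member with no overlap, where 1.18% of all genes were higher with none and 1.31% lower: 8.88, 9.26, 9.01, 8.76 and 9.12 against 8.75, 8.51, 8.15 and 8.65, the nearest arrays differing by under 0.01. Sdhb had 9.20, 9.50, 8.88, 8.51 and 8.58 against 8.61, 8.15, 8.61 and 8.25 and differed by 0.53 ± 0.21 (adjusted p = 0.506). Under the other settings the Sdhb difference ran from 0.05 to 0.57, and with any 1 array left out from 0.39 to 0.64. Uqcrc2, the second core protein of complex III, differed by 0.22 ± 0.17, with 9.25, 9.58, 9.74, 9.18 and 9.28 against 9.09, 9.19, 9.07 and 9.40. Cox8c differed by 0.29 ± 0.19, with 4.31, 4.04, 4.37, 4.25 and 4.54 against 3.98, 4.2, 3.86 and 4.00, and Atp5g2 by -0.35 ± 0.23, with 8.49, 9.23, 9.37, 9.58 and 9.40 against 9.34, 9.32, 9.74 and 9.84.

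Here the division mattered. The median was 0.23 with the WT arrays of the first run (2 arrays) and 0.01 with those of the second (3 arrays). Among females (2 against 2) it was 0.27, and among males (3 against 2) -0.05. In WT the female arrays of 12 weeks are those of the first run, so sex and run cannot be told apart in this group. Of the neuron markers 13 of 14 were above 0 in WT as well (median 0.43), and of the oligodendrocyte markers 0 of 12 (median -1.75), none passing. At an unadjusted p under 0.05, 11 of the 12 oligodendrocyte genes were lower at 12 weeks. WT replicate 4 of 6 weeks had a neuron score of -1.10, the lowest of its group. The ependyma and choroid plexus list had 1 of 9 above 0 and a median of -1.34, with WT replicate 4 among the 6-week arrays. Their part in the members' values was not tested.

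The test of whether the stage difference itself differed between genotypes (the interaction, KO minus WT) passed for no member, and 0 of all genes passed, 0%. At an unadjusted p under 0.05, 6 of 82 members (7.32%) were found, against 5.21% of all genes (2.89% higher and 2.32% lower). Ndufv1, Atp5s, Uqcr11, Ndufa11 and Uqcrq were above 0, and Cox8c was below. The median was 0.23, against 0.02 over all genes, and 69 of 82 were above 0, against 52.1%. Without KO replicate 3 of 6 weeks the count at an unadjusted p under 0.05 was 0. Ndufv1 had an interaction of 0.69 ± 0.29, Uqcr11 of 0.60 ± 0.26 and Ndufa11 of 0.58 ± 0.26, all with adjusted p = 0.917. The interval lay within a log2 difference of 1 for 60 of 82 members and within 0.5 for 4, so interactions of moderate size were not detectable with these arrays.

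The c subunit genes and other pairs were also followed over all groups. At 6 weeks Atp5g1 had 6.42, 5.46 and 6.50 in KO against 6.91, 6.43, 6.09 and 7.47 in WT, and Atp5g2 9.49, 10.005 and 9.21 in KO against 9.34, 9.32, 9.74 and 9.84 in WT. Atp5g3 had 10.51, 9.63 and 10.35 in KO against 10.72, 10.73, 10.03 and 10.40 in WT. KO replicate 2 of 6 weeks was the lowest KO array for Atp5g1 and Atp5g3 and the highest for Atp5g2, and it had the lowest array weight of all 18, 0.446. Ndufa4 had 10.67, 10.12 and 10.88 in KO against 11.26, 10.97, 10.26 and 10.83 in WT at 6 weeks and differed by -0.27 ± 0.23. At 12 weeks it had 11.15 at the lowest, 11.23 at the median and 11.50 at the highest in KO against 11.38, 11.24, 11.20, 11.01 and 10.83 in WT and differed by 0.13 ± 0.18. Cox7a2 differed by 0.01 ± 0.20 at 6 weeks, with 10.21, 9.90 and 10.11 in KO against 10.44, 10.03, 9.75 and 10.05 in WT. Ndufa4l2 had 4.93, 4.05 and 4.56 in KO against 5.07, 4.83, 5.29 and 4.47 in WT. None of these passed.

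The widely used complex IV isoforms were close at 6 weeks. Cox4i1 had 10.39, 10.33 and 10.08 in KO against 10.33, 10.44, 9.999 and 10.58 in WT, and Cox4i2 4.54, 4.56 and 4.64 in KO against 4.37, 4.41, 4.84 and 4.16 in WT. Cox6a1 had 10.57, 10.77 and 10.48 in KO against 10.67, 10.28, 10.18 and 10.60 in WT and differed by 0.18 ± 0.17. Cox6b1 had 11.14, 11.10 and 11.03 in KO against 11.17, 10.98, 10.86 and 10.91 in WT, and Cox8a 10.86, 10.92 and 10.92 in KO against 11.02, 10.85, 10.86 and 10.90 in WT. Cox6b1 differed by 0.11 ± 0.17 and Cox8a by -0.01 ± 0.16, and the groups overlapped in all 5 genes.

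Subunits encoded by mitochondrial DNA had medians near 0 in all 4 comparisons, and 0 of the 7 found on the array (ND1, ND2, ND4L, ND6, COX1, COX3 and ATP6, of 13) passed. Their medians were 0.00 and 0.01 for KO against WT at 12 and 6 weeks, and 0.01 and 0.03 for 12 against 6 weeks in KO and in WT. ND1, a core subunit of complex I, had 12.73 at the lowest, 12.88 at the median and 12.97 at the highest in KO against 12.92, 12.96, 12.85, 12.76 and 12.84 in WT at 12 weeks. COX1, the catalytic subunit of complex IV, had 12.42, 11.99 and 12.50 in KO against 12.38, 12.39, 12.31 and 12.35 in WT at 6 weeks. KO replicate 2 was the lowest of the 18 arrays.

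No gene of the other mitochondrial and energy lists passed in any of the 4 comparisons. Of 21 genes of the mitochondrial ribosome, which translates the mitochondrial mRNAs, 21 were higher at 12 than at 6 weeks in KO, with a median of 0.27, and 5 had an unadjusted p under 0.05. Mrpl20 differed by 0.81 ± 0.21 (adjusted p = 0.348), with 7.37 at the lowest, 7.81 at the median and 8.35 at the highest at 12 weeks against 6.93, 7.31 and 6.81 at 6 weeks. For KO against WT at 12 weeks the list had 18 of 21 genes above 0 and a median of 0.14. Of 35 assembly factors, 27 were higher at 12 weeks in KO, with a median of 0.12. Tmem126b, needed to build the membrane arm of complex I, differed by 0.98 ± 0.23 (adjusted p = 0.264), with 7.50 at the lowest, 7.77 at the median and 8.56 at the highest at 12 weeks against 6.80, 7.0 and 6.81 at 6 weeks and no overlap.

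Of 16 genes of the citrate cycle, which supplies NADH and succinate, 14 were above 0 for KO against WT at 12 weeks (median 0.15) and 13 for 12 against 6 weeks in KO (median 0.17), and 5 for 12 against 6 weeks in WT (median -0.06). Suclg2, a subunit of succinyl-CoA ligase, differed by 0.75 ± 0.21 between KO and WT at 12 weeks (adjusted p = 0.157), with 7.35 at the lowest, 7.61 at the median and 7.84 at the highest in KO against 6.48, 7.05, 7.27, 6.68 and 6.77 in WT and no overlap. Dlat, the acetyl-transferring subunit of pyruvate dehydrogenase, differed by 0.69 ± 0.21 between 12 and 6 weeks in KO (adjusted p = 0.453). Glycolysis had 14 of 17 genes above 0 for the KO stages (median 0.13) and 11 of 17 for the WT stages (median 0.13). Of 9 genes that bring copper to complex IV, 7 were above 0 for KO against WT at 12 weeks, with a median of 0.18, and 6 in each stage comparison. Cytochrome c and the carriers had 10 of 12 above 0 for the KO stages, with a median of 0.21. Cycs, cytochrome c itself, differed by 0.48 ± 0.24 (adjusted p = 0.664). Of 13 regulators of mitochondrial biogenesis, 8 were above 0 for KO against WT at 12 weeks (median 0.11) and 9 for the KO stages (median 0.09). Gabpa, an ETS factor, differed by 0.62 ± 0.21 between KO and WT at 12 weeks (adjusted p = 0.249). Its part in the members' values was not tested. Nrf1 differed by -0.75 ± 0.21 between 12 and 6 weeks in WT (adjusted p = 0.309) and by 0.24 ± 0.23 in KO. Ppargc1a, the coactivator of this programme, had 7.05 at the lowest, 7.37 at the median and 7.71 at the highest in KO against 7.64, 7.39, 7.51, 7.22 and 7.22 in WT at 12 weeks.

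**Figure D5:**
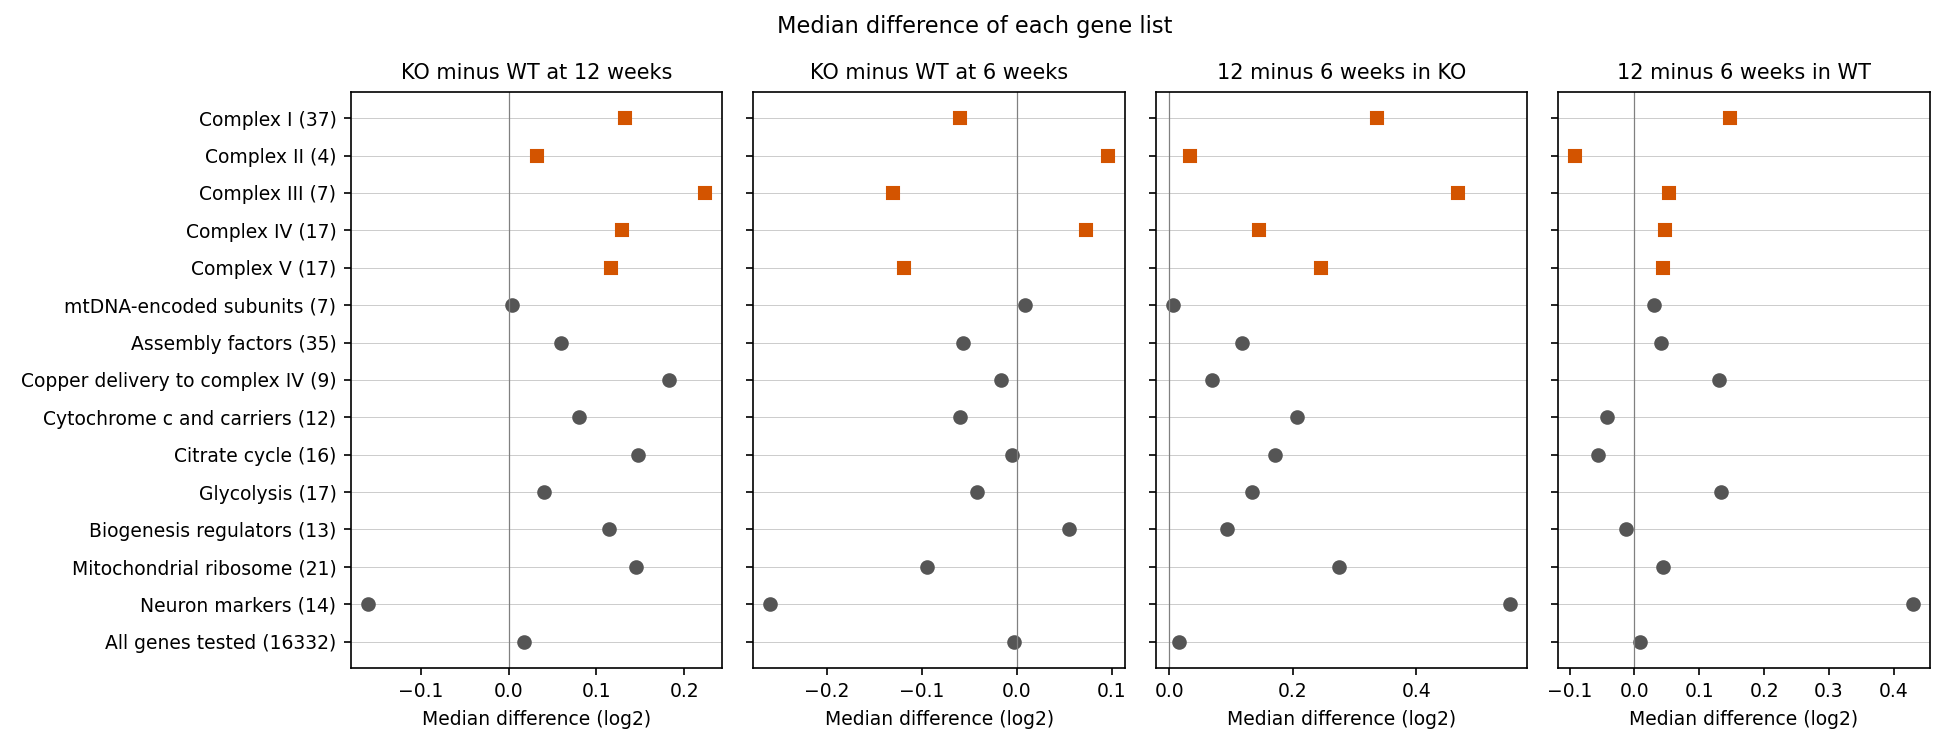
Median log2 difference of each complex (squares) and of related gene lists (circles) in 4 comparisons, with the number of genes tested in brackets. For 12 minus 6 weeks in KO, complexes I, III and V, the mitochondrial ribosome and the neuron markers lie to the right, and the subunits encoded by mitochondrial DNA lie near all genes; the horizontal scale differs between panels.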

How the data were processed

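RNA of 18 samples was read on mouse arrays. The authors deposited log2 values per probe set, and their background correction and normalization are not given in the sources used here. No background level per probe was used. Per array, the median of all 241576 probe sets was 5.26 to 5.41. Of the probe sets 212097 had 1 gene symbol in the platform annotation, 4475 several and 25004 none, and a probe set with several symbols or none was left out. A gene's value was the median of its probe sets, which gave 20416 genes, and the 20% with the lowest mean were left out, which left 16332. Of the symbols, 20363 matched the RefSeq table and 2742 were updated. Differences are of log2 group means from limma 3.58.1 in R 4.3.3 (lmFit and eBayes, 4 groups in 1 fit, 5 contrasts), with Benjamini-Hochberg adjustment over all genes tested and a threshold of 0.05, and intervals are 95%. The fit was tested on simulated data. The 4 groups were compared as KO against WT at each stage, 12 against 6 weeks in each genotype, and the interaction. These comparisons share arrays. Figures were drawn with matplotlib 3.10.9 under Python 3.11.15, and promoters are RefSeq windows on GRCm38.p6, searched on both strands.

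The rule for the members reads gene symbols only, but this group of genes and the gene lists were proposed with earlier results of these data known. Values in every array are given for the member of each complex with the smallest p in each genotype and stage comparison, for isoform pairs and for the c-subunit genes. Outside the members, up to 4 genes of the smallest p in a list could be named. Other genes named here, such as Ndufab1 and Ppargc1a, were chosen after their values were seen. Alternatives were the filter, quantile normalization, the mean or the brightest probe set, an intensity trend, array weights, fits with only the groups compared, blocks for replicate number or run of accession numbers, sex as a covariate, and leaving out arrays.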

Additional observations from a re-analysis of the deposited data

Results flagged for a closer look

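In groups of 4 to 6 arrays, 3 of 99 tests for an array far from the others of its group (Dixon's test) passed the 95% critical value, where chance gives about 1 in 20. Cox6a2 had a log2 signal of 5.94 in WT replicate 4 of 6 weeks, while the other 3 arrays of that group lay between 6.86 and 6.96. In the same array Cox8b had 9.94, while the others lay between 5.3 and 6.07. Cox7a2 had 10.70 in WT replicate 2 of 12 weeks, while the other 4 arrays lay between 10.11 and 10.21.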

How the results depend on the processing

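Under 30 other settings the counts of members that passed stayed at 0, except for KO against WT at 12 weeks, where 1 member passed with array weights, 2 with only the groups compared, 1 without the 6-week arrays of lowest weight (KO replicate 2 and WT replicate 4), and 0 to 1 with any 1 array left out. Cox6b2 was that member each time (adjusted p = 0.0248 with array weights, 0.0073 with only the groups compared, 0.00768 without the low-weight arrays and 0.0147 without WT replicate 4 of 6 weeks), and Cox7a1 was the other (adjusted p = 0.04). With the brightest probe set for each gene, the members' median was 0.022 for KO against WT at 12 weeks, 0.17 for 12 against 6 weeks in KO and 0.12 for the interaction, while the medians of all genes were -0.07, -0.06 and -0.03. Under that setting complex V had -0.07 at 12 weeks, complex II -0.12 at 6 weeks, complexes I and III 0.20 and 0.23 for the KO stages, and complexes III and V 0.21 and 0.08 for the interaction. With the mean of the probe sets complex III had 0.31 for the KO stages. Ndufa12 at 6 weeks reversed to -0.13 with the brightest probe set, and Sdhc at 6 weeks to 0.0002 without the low-weight arrays. Leaving out any 1 array gave members' medians of 0.09 to 0.19 for KO against WT at 12 weeks, -0.11 to 0.02 at 6 weeks, 0.25 to 0.31 for the KO stages, 0.03 to 0.15 for the WT stages and 0.18 to 0.30 for the interaction. Same-numbered arrays did not meet the bar for pairing (every correlation of deviations over 0.1): over 15 pairs it was -0.36 to 0.24, with 2 over 0.1. Still, the array of the same number was the best match in 8 of 15 pairs and in all 5 pairs of KO and WT at 12 weeks, at 0.02 to 0.10, a hint from the data and not from the design. With a replicate block, 11, 2, 23, 3 and 4 members had an unadjusted p under 0.05 in the 5 comparisons, and 0 passed. Quantile normalization gave members' medians of 0.049 for KO against WT at 12 weeks and 0.22 for the KO stages, and -0.06 and -0.05 for complex II. At 12 weeks the count at an unadjusted p under 0.05 was 5 with quantile normalization and 20 with array weights, against 11. The cause was not tested. The few arrays per group limit all of these.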
